A study of Mus musculus with 6 samples.

Results

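The genes of the 4 Hox clusters were followed in whole skin of mice that overexpress one of them, Hoxc13. Members were all probe sets of the array whose gene symbol was Hox, then a, b, c or d, then a number, whatever their brightness. These were 41 of the 12422 probe sets that were not controls, and they named 33 of 8949 genes. Of the 41, 38 listed 1 Hox gene and 3 listed 2 of them, 1 probe set for Hoxb8 with Hoxb7 and 2 for Hoxd4 with Hoxd3. Together the 38 covered 31 of the 39 Hox genes in the RefSeq table, and 5 of those genes (Hoxa4, Hoxa6, Hoxb8, Hoxd1 and Hoxd8) had several probe sets. The annotation used here named no probe set for Hoxc10, Hoxc11, Hoxc12 or Hoxc13, so these genes, the transgene's own among them, were not analysed here.

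Hox proteins are transcription factors that bind DNA through a homeodomain and give cells along the body axis their positional identity. Their genes lie in clusters on separate chromosomes, and the order within a cluster, given by the paralogue number, follows the order of their activation in the embryo and the position of their domains from head to tail. In skin, dermal fibroblasts keep a Hox pattern that reflects their site on the body, and Hoxc13 acts in the hair follicle, where it controls hair keratin genes. Hox proteins often bind DNA with partners of the TALE homeodomain class. Polycomb proteins keep silent clusters closed, trithorax proteins keep active ones open, and retinoic acid acting through its receptors opens the clusters in the embryo.

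The series held 6 single-sample Affymetrix arrays of total RNA from skin taken 5 days after birth. FVB mice, an albino inbred strain, gave 3 samples, and GC13 mice, transgenic animals with overexpressed Hoxc13, gave the other 3. The promoter of the transgene and the strain that carries it are not in the labels. Nothing there says that each sample was a different mouse, so a p-value here reflects only how these samples varied, which may in part be technical, though the sex-linked genes below differed within GC13. Setting GC13 beside FVB asks what added Hoxc13 does to gene expression in skin, and here whether the other Hox genes differed.

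Intensities summed to between 1626361 and 1736141 per array, and 3 arrays per group limited the precision. For Gapdh, the intensity of the 3' control probe set over that of the 5' one, a ratio that is higher in degraded RNA, ran from 0.894 to 0.958 in FVB and was 2.22, 9.58 and 2.19 in GC13 (exact permutation test, two-sided, p = 0.1, the smallest it allows). For beta-actin the same ratio was 1.36, 1.26 and 1.16 in FVB against 1.26, 3.80 and 1.43 in GC13 (exact permutation test, two-sided, p = 0.2), where replicate 2 alone was outside the range of FVB by a wide margin. GC13 replicate 2, with the ratio of 9.58, stood apart from its group. Eif2s3y, which is Y-linked, measured 69.4, 98.9 and 79.6 in FVB against 3.25, 143 and 4.60 in GC13. Xist, the X inactivation transcript of female cells, measured 9.95, 11.9 and 11.7 in FVB against 9.15, 1.07 and 12.6 in GC13. Of the GC13 arrays, replicate 2 was thus high for Eif2s3y and low for Xist. For Eif2s3y, GC13 replicates 1 and 3 lay below every FVB array. Of the epidermal markers, Krt1, Krt10, Lor and Flg each had a bright probe set on all arrays, while Krt5 and Krt14, which define the basal layer, did not exceed 14.2 on any. Summed marker intensities ran from 9256 to 9739 in FVB and from 12095 to 13955 in GC13 for dermal fibroblasts, and from 13770 to 14780 and from 11771 to 13462 for the hair follicle. Those of endothelial cells ran from 441 to 548 and from 760 to 957, and those of melanocytes from 956 to 1021 and from 492 to 789. The sums were also apart for epidermis (5259 to 5476 and 5752 to 10185), skeletal muscle (2304 to 2412 and 2557 to 3072), adipocytes (1508 to 1620 and 1689 to 2360) and leukocytes (812 to 845 and 684 to 788), while the 6 probe sets for brain or spinal cord summed to no more than 60.2 on any array. A sum is set mostly by the brightest probe sets of a list. By log2 fold change, GC13 minus FVB, 3 adipocyte probe sets lay above 0 and 1 below, and 4 leukocyte ones above and 5 below. For the hair follicle 2 lay above 0 and 5 below, for skeletal muscle 7 and 1, and for melanocytes 1 and 6. All those of dermal fibroblasts (12), epidermis (9) and endothelial cells (5) lay above 0, where 63.0% of all probe sets did. The sample titles do not name the body site of the skin. The part of body site, RNA quality, sex or cell makeup in the differences below was not tested.

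Upstream sequence is shown for Hoxa7 and Hoxb4, whose GC13 intensities all lay below those of FVB. Each is the 250 bases before the RefSeq start in GRCm38.p6, at chr6:52218574-52218823 on the minus strand for Hoxa7 and chr11:96318017-96318266 on the plus strand for Hoxb4. Capitals mark a match, on either strand, to TAATTA (a common homeodomain core), to TTTACGA or TTTATTG (forms bound by paralogue group 13 proteins) or to AGGTCA (the half-site of retinoid receptors).
Hoxa7: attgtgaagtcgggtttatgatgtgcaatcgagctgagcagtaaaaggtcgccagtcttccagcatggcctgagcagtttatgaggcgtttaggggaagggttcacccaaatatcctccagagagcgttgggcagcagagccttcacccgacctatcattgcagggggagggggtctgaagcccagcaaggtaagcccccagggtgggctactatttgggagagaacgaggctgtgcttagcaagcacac
Hoxb4: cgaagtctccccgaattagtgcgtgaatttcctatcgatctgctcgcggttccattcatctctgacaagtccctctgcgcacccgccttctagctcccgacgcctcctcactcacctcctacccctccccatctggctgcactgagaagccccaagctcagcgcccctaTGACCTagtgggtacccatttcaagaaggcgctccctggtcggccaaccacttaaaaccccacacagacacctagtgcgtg
The Hoxa7 window held none of the 4 motifs, and the Hoxb4 window held 1 match to AGGTCA, on the strand opposite to the gene. Among the 24 windows of 22 Hox genes in the table, AGGTCA was in 25%, those of 6 genes, against 14% of all 32851 windows. TAATTA was in 8.33% against 4.84%, and its 2 Hox windows were both of 1 gene, Hoxd11. TTTATTG was in 4.17% of the Hox windows against 4.20% of all, and TTTACGA in 4.17% against 0.478%, each in 1 Hox window, that of Hoxb8. A match is a description of the letters and no sign of binding.

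The clusters also encode microRNAs, which the array did not measure. The miR-196 genes lie in the Hoxa, Hoxb and Hoxc clusters and are known to silence Hoxa7, Hoxb8, Hoxc8 and Hoxd8, and the miR-10 genes lie in the Hoxb and Hoxd clusters. Their mature RNAs are given so that the values of those 4 genes below can be read beside them, with the seed, bases 2 to 8, in capitals (RefSeq, GRCm38.p6).
mmu-miR-196a-5p: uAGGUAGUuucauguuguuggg
mmu-miR-196b-5p: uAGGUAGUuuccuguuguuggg
mmu-miR-10a-5p: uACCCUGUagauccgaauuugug
mmu-miR-10b-5p: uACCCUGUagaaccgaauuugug
Each pair shares its seed. The miR-196 forms differ by A12C and the miR-10 forms by U12A, counted from the 5' end.

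No Hox probe set differed between GC13 and FVB past the threshold, an adjusted p of 0.05 by limma with Benjamini-Hochberg adjustment over all 12422 probe sets. The count was 0 of 41, where 0.290% of all probe sets passed, 0.0403% (5) higher and 0.250% (31) lower in GC13, and the smallest adjusted p among the Hox probe sets was 0.125. At an unadjusted p under 0.05 there were 3 of 41, or 7.32%, against 14.9% of all probe sets. Hoxa4, Hoxa7 and Hoxb4 each had a probe set whose GC13 intensities lay wholly above or wholly below the FVB ones, 7.32% of the 41 against 20.1% of all probe sets. The median log2 fold change, GC13 minus FVB, was 0.16 over the Hox probe sets and 0.14 over all, and their middle 50% ran from -0.13 to 0.36 and from -0.16 to 0.39. In whole tissue, fewer cells of a type and less RNA per cell cannot be told apart.

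**Figure D1:**
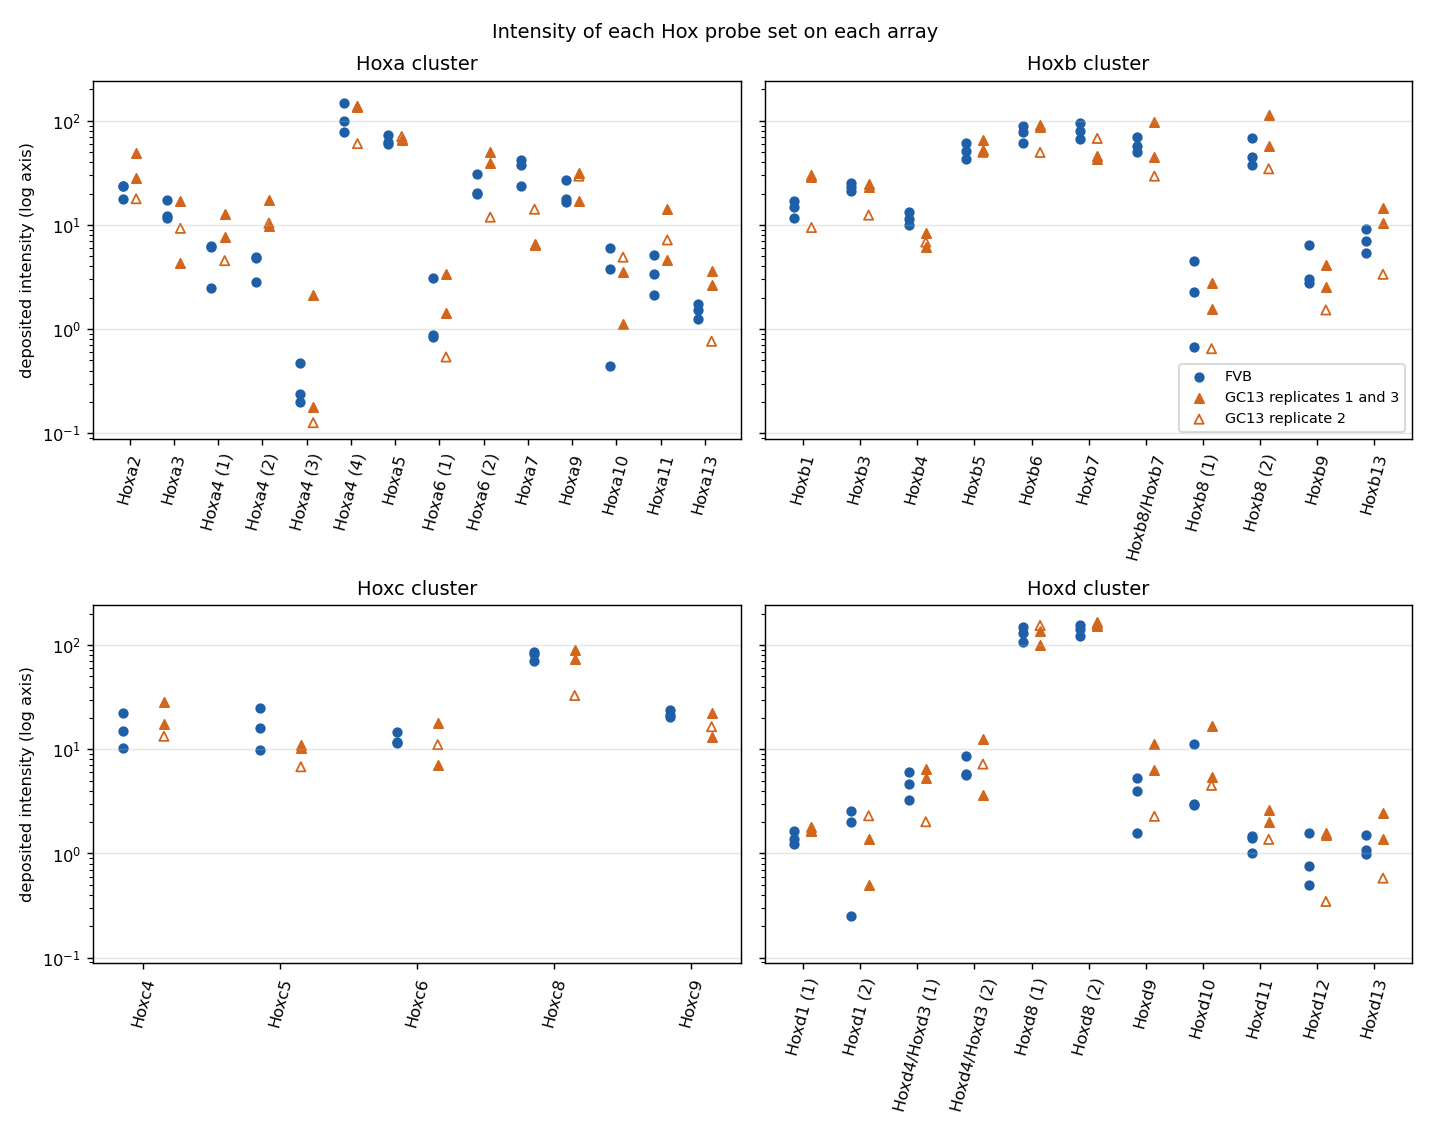
Deposited intensity (log axis) of each of the 41 Hox probe sets on each array, by cluster and in order of paralogue number, with FVB as circles and GC13 as triangles, open for replicate 2. Numbers in brackets tell probe sets of 1 gene apart, and the groups are apart for 1 probe set of Hoxa4, for Hoxa7 and for Hoxb4 alone.

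Hoxa7, a trunk Hox gene of the middle of its cluster, had the largest difference. Its intensities were 37.7, 42.4 and 23.4 in FVB against 6.55, 14.2 and 6.44 in GC13. All 3 GC13 arrays were lower, and replicate 2 was the nearest to FVB. The log2 fold change was -1.68 (SE 0.39, 95% interval -2.59 to -0.77), a 3.21-fold difference that did not pass (limma adjusted p = 0.153). Without GC13 replicate 2 it passed, at -2.09 (limma adjusted p = 0.0209), in a fit where 7.85% of all probe sets did. Hoxb7, its paralogue in the Hoxb cluster, had 66.8, 79.3 and 94.2 in FVB against 42.8, 67.7 and 46.3 in GC13. Here GC13 replicate 2 lay within the FVB range and the other 2 GC13 arrays below it, and the log2 fold change, -0.54 (SE 0.29, limma adjusted p = 0.423), became -0.83 (limma adjusted p = 0.0495) without that array. The probe set shared by Hoxb8 and Hoxb7 had 57.5, 49.9 and 70.5 in FVB against 45.2, 29.4 and 97.8 in GC13, so its groups overlapped on both sides.

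Hoxa4, a gene of the anterior part of the cluster, was measured by 4 probe sets with different values. One had 2.81, 4.89 and 4.81 in FVB against 17.2, 10.4 and 9.67 in GC13, and the log2 fold change was 1.28 (SE 0.27, 95% interval 0.65 to 1.91; limma adjusted p = 0.125). All 3 GC13 arrays were higher, though every value was below the median of all probe sets, 34.7. The one with the highest signal had 77.3, 99.6 and 147 in FVB against 137, 60.4 and 138 in GC13, with overlapping groups and a log2 fold change of 0.08. The other 2 had 0.61 and 0.29, also with overlapping groups. Hoxb4, its paralogue, went the other way with 11.4, 13.2 and 10.0 in FVB against 8.40, 6.85 and 6.11 in GC13. The groups did not overlap, and the log2 fold change of -0.50 (SE 0.23, 95% interval -1.02 to 0.03) did not pass (limma adjusted p = 0.357). Hoxc4 had 14.9, 22.4 and 10.2 in FVB against 17.4, 13.3 and 28.6 in GC13, with the groups mixed. Of the 8 probe sets of paralogue group 4, 7 lay above 0 and 1 below, where 63.0% of all probe sets lay above 0, and 4 of the 7 were those of Hoxa4.

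**Figure D2:**
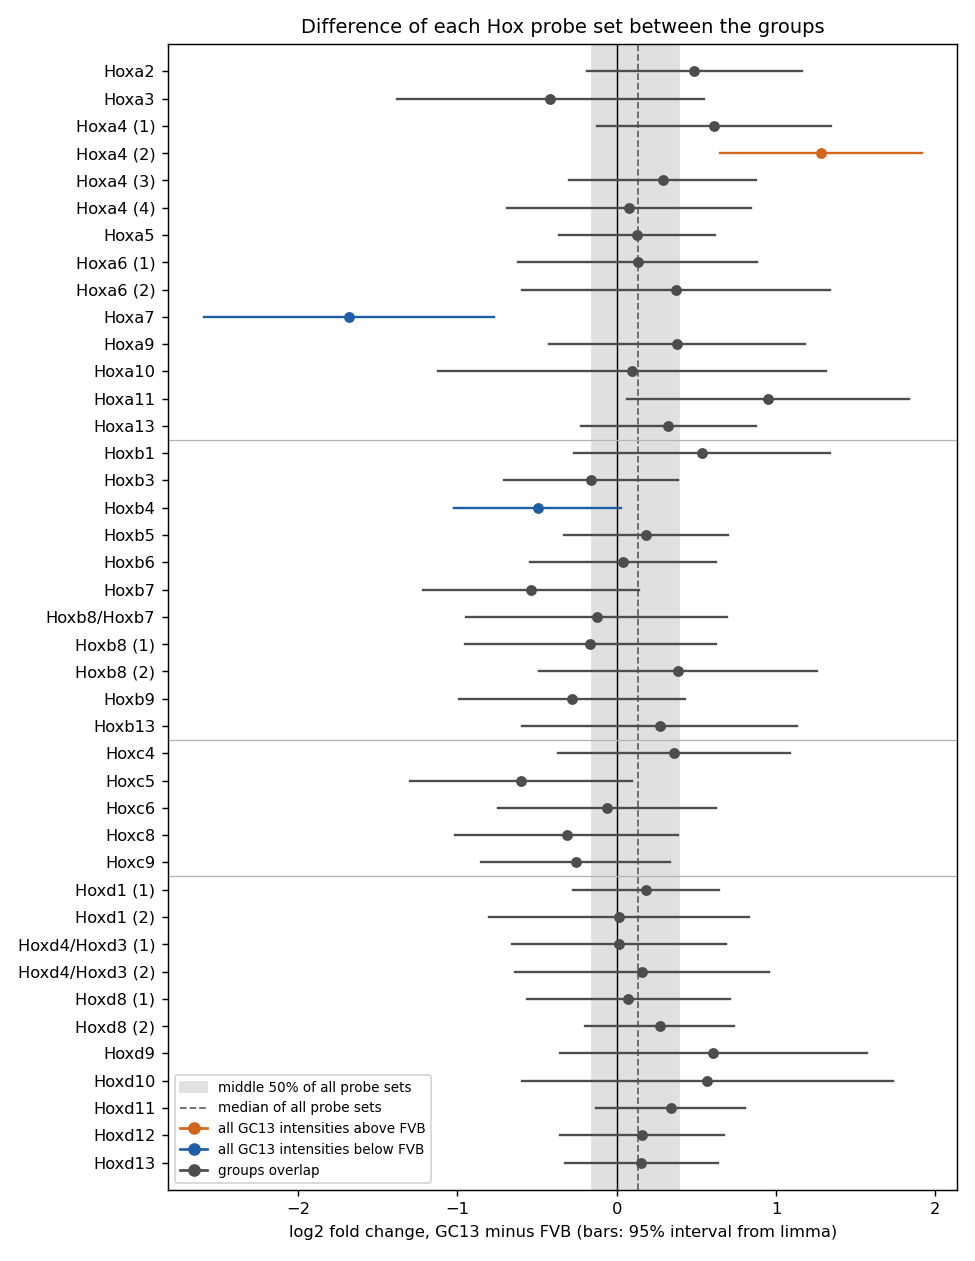
Log2 fold change of each Hox probe set, GC13 minus FVB, with its 95% interval from limma, against the median (dashed) and middle 50% (grey) of all 12422 probe sets. Hoxa7 at -1.68 and 1 of the 4 Hoxa4 probe sets at 1.28 lie farthest from 0, and apart from theirs and that of Hoxa11 the intervals span 0.

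The Hoxc cluster, which holds the transgene's endogenous copy, was represented by its 5 genes from Hoxc4 to Hoxc9. None passed, the smallest adjusted p was 0.391, and the median log2 fold change was -0.26. Under the centring used, 1 of 5 probe sets lay above 0, where 63.0% of all did. It was also 1 of 5 without centring and after quantile normalization, where 56.6% and 53.0% of all lay above 0. Without GC13 replicate 2 it was 2 of 5, where 58.5% of all did. Hoxc5 had 9.93, 24.8 and 15.999 in FVB against 10.4, 6.80 and 10.95 in GC13, the lowest log2 fold change of the cluster at -0.60 (SE 0.30), and it was -0.32 without FVB replicate 2. Its first FVB array lay among the GC13 arrays. Hoxc6 had 11.9, 14.8 and 11.6 in FVB against 7.09, 11.1 and 18.05 in GC13. Hoxc8, a gene of the thoracic region, had 69.9, 86.5 and 82.8 in FVB against 73.9, 32.8 and 89.0 in GC13, where replicate 2 alone was low. Hoxc9 had 21.2, 23.8 and 20.6 in FVB against 22.2, 16.5 and 13.1 in GC13, with 1 GC13 array within the FVB range. The probe set nearest to Hoxc13 along the chromosome was thus that of Hoxc9, with a log2 fold change of -0.26 (95% interval -0.85 to 0.34).

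The genes of paralogue groups 9 to 13, the posterior class to which Hoxc13 belongs, were dim. Their 12 probe sets, 1 for each of 12 genes by the annotation, ran from 0.346 to 31.7 over all arrays. Of these, 9 were among the 25% of all probe sets with the lowest mean. Of the 12, 10 lay above 0 and 7 did so after quantile normalization, where 63.0% and 53.0% of all probe sets did. In the dimmest 25% of the array, 80.1% and 53.6% of all probe sets did. None passed, and the smallest adjusted p was 0.313. Hoxa11, known from limb and reproductive tract development, had the largest difference among them, with 3.38, 2.14 and 5.11 in FVB against 14.2, 7.18 and 4.62 in GC13. Its GC13 replicate 3 lay within the FVB range. The log2 fold change was 0.95 (SE 0.38).

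The direct paralogues of Hoxc13 did not pass either. Hoxa13, a gene of the distal limb, had 1.26, 1.76 and 1.53 in FVB against 2.67, 0.764 and 3.62 in GC13, and Hoxd13 had 0.997, 1.09 and 1.51 in FVB against 1.38, 0.580 and 2.42 in GC13. In both, GC13 replicate 2 was below every FVB array and replicate 3 above every one. Hoxb13, expressed in the hindgut and prostate, had 9.08, 5.37 and 7.03 in FVB against 14.7, 3.36 and 10.4 in GC13, with the same order of GC13 replicate 2 lowest. The log2 fold changes of the 3 were 0.32, 0.16 and 0.27, with upper 95% bounds of 0.87, 0.64 and 1.13. At these intensities such bounds say little about transcript levels, since signal over background is unknown.

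The other posterior genes also had overlapping groups. Hoxd11 had 1.40, 1.01 and 1.48 in FVB against 2.59, 1.37 and 2.002 in GC13, and Hoxd12 had 0.493, 1.56 and 0.755 in FVB against 1.497, 0.346 and 1.57 in GC13. Hoxa10 had 3.80, 6.05 and 0.437 in FVB against 3.56, 4.90 and 1.11 in GC13, a spread within each group larger than the difference between them. Hoxd9 had 5.29, 1.56 and 4.01 in FVB against 11.2, 2.28 and 6.39 in GC13, and Hoxd10 had 3.01, 2.93 and 11.2 in FVB against 16.9, 4.50 and 5.42 in GC13. The annotation gives the probe sets of Hoxd9 and Hoxd10 the same source sequence, so which gene each reports is uncertain. Hoxb9 had 6.47, 3.02 and 2.76 in FVB against 4.11, 1.53 and 2.51 in GC13. Hoxa9, a trunk and limb gene, had 26.7, 17.7 and 16.6 in FVB against 31.7, 29.4 and 16.8 in GC13.

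Groups 5 to 8 hold the trunk genes, and their 15 probe sets had a median log2 fold change of 0.04, with 8 above 0. Hoxd8 was measured by 2 probe sets with overlapping groups, 1 with 131, 108 and 150 in FVB against 100, 155 and 136 in GC13, the other with 122, 143 and 155 in FVB against 153, 158 and 168 in GC13. Their log2 fold changes were 0.07 and 0.27, with 95% intervals from -0.56 to 0.71 and from -0.20 to 0.74. Hoxa5 had 59.8, 62.9 and 72.7 in FVB against 66.4, 70.6 and 66.0 in GC13, all within a narrow band. Hoxb6 had 78.4, 61.7 and 88.4 in FVB against 91.9, 49.7 and 87.3 in GC13. The brighter probe set of Hoxb8 had 44.7, 37.7 and 69.0 in FVB against 57.2, 34.6 and 114 in GC13, and a dim one did not exceed 4.47. Of the 4 genes known as miR-196 targets, Hoxa7 alone had groups that did not overlap. It was 1 of 6 probe sets, where 20.1% of all probe sets had no overlap. The 6 split into 3 above 0 and 3 below, where 63.0% of all lay above 0. The probe set shared by Hoxb8 and Hoxb7 was not among the 6.

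Taken by cluster, the median log2 fold change was 0.31 over 14 Hoxa probe sets, -0.13 over 11 Hoxb, -0.26 over 5 Hoxc and 0.16 over 11 Hoxd, beside 0.14 over all probe sets. After quantile normalization the Hoxa median was 0.12, with 10 of 14 above 0, beside 0.03 over all probe sets. All 11 Hoxd probe sets lay above 0, though none by more than 0.61, and 8 of them were in the dimmest 25% of the array. In that dimmest set 80.1% of all probe sets lay above 0. After quantile normalization 5 of 11 Hoxd probe sets lay above 0 and their median was -0.03, so the direction of the Hoxd cluster turned with the scaling. The median of the Hoxb cluster was 0.15 without GC13 replicate 2. No difference between clusters was tested.

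**Figure D3:**
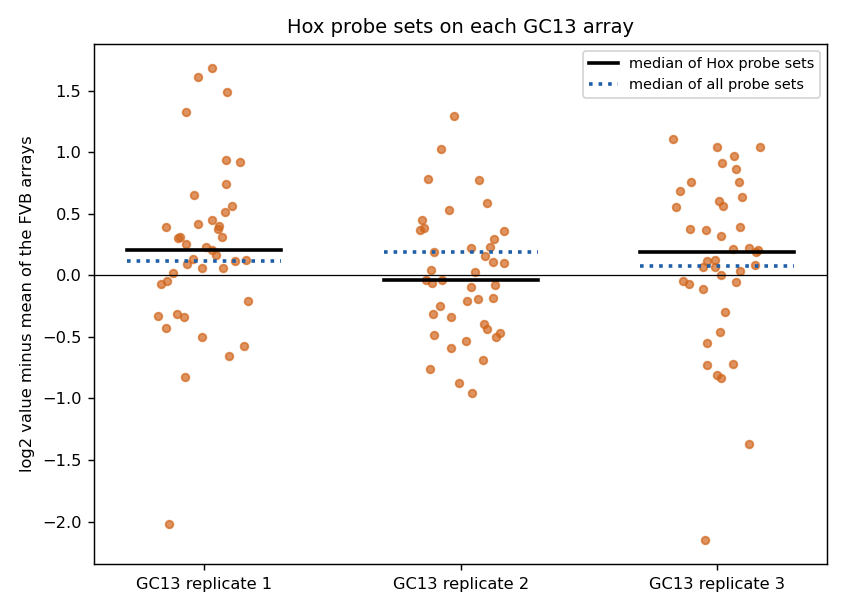
Log2 value of each Hox probe set (points) on each GC13 array minus the mean of the FVB arrays, with the median of the Hox probe sets (solid line) and of all probe sets (dotted line). The Hox median is 0.21 on replicate 1, -0.04 on replicate 2 and 0.19 on replicate 3.

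On GC13 replicate 2 the median of the Hox values was lower than on the other GC13 arrays, though the values of the arrays overlapped. This difference was not tested. Relative to the FVB mean, the Hox median was 0.21 and 0.19 on replicates 1 and 3 and -0.04 on replicate 2, while that of all probe sets was 0.11, 0.07 and 0.19. Replicate 2 held the lowest of the 3 GC13 values for 21 of 41 Hox probe sets, or 51.2%, and for 39.2% of all probe sets. The spread within GC13 exceeded that within FVB for 78.0% of the Hox and 80.0% of all probe sets. Without this array 3 Hox probe sets passed, or 7.32%, near the 7.85% of all probe sets: Hoxa7 and Hoxb7 lower, where 4.38% of all were, and Hoxb1 higher, where 3.47% were. Hoxb1, a hindbrain gene, had 11.7, 14.8 and 16.9 in FVB against 28.6, 9.44 and 30.4 in GC13, with a log2 fold change of 0.53 on all arrays and 0.93 (limma adjusted p = 0.0388) without replicate 2.

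With arrays weighted by their estimated quality, where GC13 replicate 1 had a weight of 3.07 and replicates 2 and 3 had 0.152 and 0.374, 10 Hox probe sets passed. Hoxa7 and Hoxb7 were lower, 2 of 41, where 10.0% of all probe sets were lower. The other 8, among them Hoxa4, Hoxa11, Hoxb1, Hoxd9 and Hoxd10, were higher, where 16.1% of all were, and 26.1% of all passed in either direction. Which gene the probe sets of Hoxd9 and Hoxd10 each report is uncertain. That fit rests largely on GC13 replicate 1.

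The remaining genes of groups 1 to 6 had overlapping groups and did not pass. Among them Hoxa2, a gene of the hindbrain and branchial arches, had 17.6, 23.6 and 23.6 in FVB against 28.2, 17.8 and 49.0 in GC13. Hoxa3, needed for thymus and parathyroid formation, had 11.7, 12.2 and 17.3 in FVB against 16.9, 9.28 and 4.35 in GC13. For 22 of the 41 Hox probe sets the 95% interval lay wholly within a change of 1 on the log2 scale in either direction, and for the other 19 it reached beyond. For those 19, a difference of that size cannot be told from these arrays. Some of the 22, such as that of Hoxd11, were in the dimmest 25% of the array. The scale used understates fold changes of dim probe sets, so for these the interval does not exclude a larger change in intensity.

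The lists of genes that act on or with the Hox clusters held 1 probe set past the threshold. Among upstream regulators, a list of retinoid pathway genes, Cdx genes and others, 1 of 21 probe sets for 18 genes fell and none rose, and 7 of the 21 had all GC13 intensities below FVB where 9.81% of all probe sets did. Rara, the retinoic acid receptor alpha gene, fell from 10.9, 9.66 and 8.13 to 1.69, 0.684 and 1.47, and its log2 fold change was -1.75 (SE 0.21, limma adjusted p = 0.0321). All 3 GC13 arrays were at the dim end of the scale, and the call was lost under 9 of 13 alternatives, where the adjusted p ran from 0.00235 to 0.286 over all 13. Its log2 fold change was -0.51 and -0.28 with pseudocounts of 16 and 32, and ran from -1.65 to -1.94 under the others. Aldh1a1, a retinoic acid synthesis enzyme gene, had 29.9, 33.8 and 31.3 in FVB against 8.01, 15.8 and 5.07 in GC13 (limma adjusted p = 0.165), while its second and dimmer one stood at 0.59 on the log2 fold change scale. Rarg, the receptor gene most typical of epidermis, had 75.1, 130 and 148 in FVB against 71.6, 11.5 and 16.7 in GC13 (limma adjusted p = 0.193). The other probe sets with no overlap were those of Rxra, Rxrb, Crabp2 and Aldh1a3, with log2 fold changes of -0.70, -0.90, -0.55 and -0.25, and a second Rxra probe set overlapped at -0.16. Cdx1, Cdx2 and Cdx4, the caudal genes that activate Hox clusters in the embryo, were dim, with no value above 6.69.

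TALE cofactors, with 8 probe sets for 6 genes, had none past the threshold and a median log2 fold change of -0.26. Meis2, a partner of Hox proteins, had 1.53, 1.34 and 2.04 in FVB against 10.3, 4.74 and 8.34 in GC13, and its log2 fold change was 1.46 (SE 0.23, limma adjusted p = 0.0667). Its probe set was in the dimmest 25% of the array. With pseudocounts of 16 and 32 the log2 fold change was 0.48 and 0.28 and did not pass. Without GC13 replicate 2 it was 1.61 and passed (limma adjusted p = 0.016), in a fit where 7.85% of all probe sets did. Pknox1 had 36.4, 38.7 and 37.2 in FVB against 17.5, 13.3 and 24.8 in GC13 (limma adjusted p = 0.151), and it too passed without that array at -0.81 (limma adjusted p = 0.0468). Meis1 had 12.2, 10.5 and 10.9 in FVB against 14.5, 15.1 and 15.7 in GC13 and did not pass. These 3 genes and Pbx2 made up the 4 of 8 probe sets with no overlap, 2 in each direction, where 10.3% of all probe sets lay wholly above and 9.81% wholly below.

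Chromatin regulators of the clusters also had no member past the threshold. The 24 Polycomb probe sets, for 17 genes, had a median of 0.17, and 5 of the 24 had no overlap, 2 higher and 3 lower, a share near the 20.1% of all probe sets. Bmi1, a Polycomb repressive complex gene, had 155, 159 and 119 in FVB against 191, 256 and 251 in GC13 (limma adjusted p = 0.239). Ezh1, a histone methyltransferase gene, had 133, 120 and 139 in FVB against 73.9, 70.8 and 100 in GC13 (limma adjusted p = 0.239). Cbx6, another Polycomb gene, had 97.1, 124 and 96.1 in FVB against 71.5, 37.1 and 52.3 in GC13 at 1 probe set (limma adjusted p = 0.179), and a log2 fold change of 0.15 at the other. The 9 trithorax probe sets, for 7 genes, had a median of 0.28. Kmt2a, which keeps Hox genes active, had 107, 89.7 and 96.3 in FVB against 123, 154 and 129 in GC13 at 1 probe set (limma adjusted p = 0.353). Its dimmer one had 27.9, 25.8 and 23.2 in FVB against 42.8, 17.8 and 50.1 in GC13, with overlap. Smarca4, a chromatin remodelling gene, had 1.62, 1.75 and 4.78 in FVB against 8.46, 4.49 and 14.5 in GC13 at a dim probe set, with overlap, and log2 fold changes of 1.28 there and 0.17 at a bright one. Dpy30, another gene of the trithorax list, had 120, 124 and 139 in FVB against 185, 139 and 186 in GC13 (limma adjusted p = 0.313). Men1, whose product works with Kmt2a, had 55.1, 56.9 and 56.9 in FVB against 44.8, 4.33 and 38.4 in GC13, where replicate 2 set most of the log2 fold change of -1.28.

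**Figure D4:**
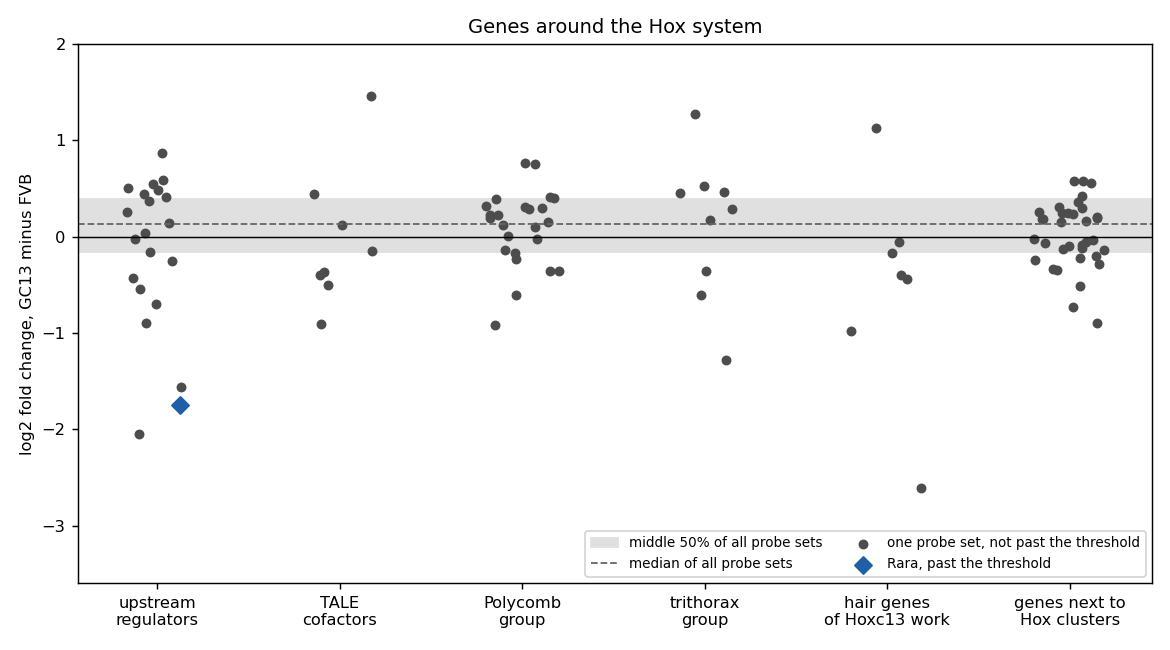
Log2 fold change, GC13 minus FVB, of each probe set (points) in the lists around the Hox genes, against the median (dashed) and middle 50% (grey) of all probe sets. Rara at -1.75 (diamond) is the 1 probe set past the threshold.

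Hair genes named in work on Hoxc13 had none of 7 probe sets past the threshold and a median of -0.39, with 5 of 7 wholly below FVB, where 9.81% of all probe sets were. Foxn1 had 41.3, 46.3 and 53.5 in FVB against 19.0, 1.31 and 4.35 in GC13 (limma adjusted p = 0.129), and Foxq1 had 109, 126 and 131 in FVB against 54.7, 66.9 and 53.0 in GC13 (limma adjusted p = 0.157). Foxq1 passed without GC13 replicate 2 (limma adjusted p = 0.0213), where 7.85% of all probe sets did, and Foxn1 did not (limma adjusted p = 0.0619). Foxn1 passed without GC13 replicate 1, at -3.32 (limma adjusted p = 0.0452), a fit with 0 higher and 4 lower calls over all probe sets. Both passed with array quality weights, where 26.1% of all probe sets did. Krt32, a hair keratin gene, had 5.65, 2.57 and 12.9 in FVB against 15.7, 8.75 and 22.3 in GC13 at a dim probe set, a difference of 1.12, and -0.06 at a bright one, with overlap at both. Krt35 and Krt31, also hair keratin genes, were bright and wholly below FVB. Their log2 fold changes were -0.44 and -0.39 at the 2 probe sets of Krt35 and -0.17 for Krt31.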

How the data were processed

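The authors deposited 1 intensity per probe set and array on a linear scale. Over the arrays, the lowest mean without the highest and lowest 2% of values was 100.1. No source used here names the software that gave the values. Control probe sets (66) were left out. Values were set to log2(intensity + 2) and centred on each array's median, since medians differed by up to 0.345. A fold change on this scale understates that of dim probe sets. No intensity filter was used. Symbols came from the platform annotation, updated through Entrez identifiers with RefSeq (GRCm38.p6): 10833 probe sets had 1 gene, 396 several and 1193 none, and 10817 matched. The groups were compared in limma 3.58.1 (R 4.3.3), two-sided, with a threshold of 0.05 after Benjamini-Hochberg adjustment over 12422 probe sets; the fit was tested on simulated arrays. Overlap was counted on deposited intensities.

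Values on every array are given for Hox probe sets with no overlap, for the Hoxc cluster and for groups 9 to 13, with up to 2 examples from each cluster and 3 from each list by smallest p. Hoxa3, Hoxa5, Hoxb6, Hoxb8, Rxra, Rxrb, Crabp2, Aldh1a3, the Cdx and Evx genes, Pbx2, Meis1, Men1, Krt31 and Krt35 were chosen after their values were seen, as were the miR-196 targets. The members and lists were chosen with earlier results of these data known. Proteins were not used here.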

Additional observations from a re-analysis of the deposited data

How the results depend on the processing

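Over all probe sets, 5 higher and 31 lower calls became 27 and 83 with a pseudocount of 16, 71 and 121 with 32, 8 and 36 without the dimmest 25%, 1 and 23 without centring, 2 and 29 with quantile normalization, 2002 and 1246 with array quality weights, and 0 and 10 with the replicate number as a block. Leaving out 1 array gave 0 to 431 higher and 0 to 544 lower, the highest without GC13 replicate 2 and 0 without any 1 FVB array. The weights were 3.07, 0.152 and 0.374 for the GC13 arrays, so that fit rests largely on replicate 1. Hox calls stayed at 0 except with the weights, at 8 higher and 2 lower (10 of 41, where 26.1% of all probe sets passed), and without GC13 replicate 2; leaving out 1 array gave 0 to 1 higher and 0 to 2 lower. Hox probe sets with no overlap numbered 5 on centred values, an alternative chosen after seeing the data, and 5 after quantile normalization, where 24.2% and 21.6% of all probe sets had none. With 1 array left out they numbered from 4 to 13, the 13 without GC13 replicate 2, where 51.8% of all had none. Calls in the regulator and hair lists, 1 as reported, were 0 with either other pseudocount, without the dimmest 25%, with a variance trend and with the block, 20 of 69 with the weights (29%, against 26.1% of all), and 0 to 7 with 1 array left out, the 7 without GC13 replicate 2 (10.1%, against 7.85% of all). The cause of these shifts was not tested.

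Hox medians stayed above 0 under every alternative, from 0.02 with quantile normalization to 0.20 without FVB replicate 3. So did the median of all probe sets, from 0.03 with quantile normalization to 0.16 without GC13 replicate 3. The Hox median was below that of all in some settings and above it in others. It was 0.07 against 0.16 without GC13 replicate 3 and 0.20 against 0.12 without FVB replicate 3. Fold changes of single probe sets with computed alternatives kept their sign: 386 stayed on their side of the threshold, 31 came to pass it and 9 ceased to. Same-numbered arrays correlated at -0.04, 0.12 and 0.28 in their deviations, so the numbers were not taken as pairs. Depth is unknown for arrays; for 16 of the 41 Hox probe sets, in the dimmest 25%, signal over background limits what can be read.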

Other observations

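Genes beside the Hox clusters on the chromosome, the nearest 5 protein-coding genes on either side and any other gene within, were measured by 35 probe sets for 23 genes. None passed in limma, 4 had an unadjusted p under 0.05, where 14.9% of all probe sets did, and their median log2 fold change was -0.02 beside 0.14 over all probe sets. Cbx5, which encodes the heterochromatin protein HP1 alpha and lies beside the Hoxc cluster, had 53.4, 65.7 and 60.4 in FVB against 87.1, 80.4 and 87.8 in GC13 at 1 probe set (limma adjusted p = 0.25). Its other, brighter one stood at a log2 fold change of -0.22. Ube2z, a ubiquitin-conjugating enzyme gene beside the Hoxb cluster, had 44.6, 49.8 and 44.2 in FVB against 25.7, 12.2 and 35.6 in GC13 at 1 probe set, and a log2 fold change of -0.02 at its brighter one. Nfe2l1, a stress-response transcription factor gene beside the Hoxb cluster, had 46.9, 59.1 and 57.3 in FVB against 42.1, 19.3 and 33.6 in GC13 at 1 probe set (limma adjusted p = 0.258), and a log2 fold change of -0.14 at its other one. Evx1 and Evx2, homeobox genes at the ends of the Hoxa and Hoxd clusters, were dim, with no value above 8.60.

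Hoxa11os, the antisense RNA of Hoxa11, was matched by its Entrez identifier to 2 probe sets. One had 4.66, 1.86 and 6.62 in FVB against 11.7, 5.49 and 13.8 in GC13, with overlapping groups (limma adjusted p = 0.25), and the other had a log2 fold change of 0.09. The Hoxa11 probe set had 0.95.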
